A study of Homo sapiens with 12 samples.

Results

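H69 cells treated with Aramchol alone were compared with vehicle-treated cells, 3 libraries against 3, which took 6 of the 12 RNA sequencing libraries of the series. H69 is an established human cell line derived from cholangiocytes, which form the epithelium of the bile ducts, and it grows without limit because it carries a viral large T antigen. The libraries were chosen by their labels, 3 named for Aramchol and 3 named for vehicle, and all genes with enough counts were tested, 21567 of the 62703 in the count table. The cells of all groups had spent 6 h without serum before treatment and were treated overnight in medium without serum. Aramchol was given at 30 µM, a dose that the sources state once for the series and that was taken to hold for this group. The other 6 libraries came from the same line with TGFβ at 10 ng/mL, 3 without and 3 with Aramchol. They entered the fit to share its estimate of spread, and they served as a comparison in which no library is shared. Because that estimate is common to both comparisons, their calls are not fully independent of each other. All libraries come from a single cell line, and no label states that a replicate is a culture of its own. The p-values therefore reflect the spread among these libraries alone, and that spread may be technical.

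Aramchol is a conjugate of cholic acid, a bile acid, with arachidic acid, a saturated fatty acid, and it is known as an inhibitor of stearoyl-CoA desaturase, encoded by SCD, which turns saturated into monounsaturated fatty acids. Several pathways that sense lipids and nutrients are known to act on the genes described here. ATF4 is a transcription factor whose translation rises when stress kinases phosphorylate the initiation factor eIF2α, in what is called the integrated stress response, and it activates genes for amino acid import, amino acid synthesis and the charging of tRNAs. SREBP2 is a transcription factor held in the endoplasmic reticulum (ER) that is released when membrane cholesterol is low, and it activates genes of cholesterol supply. BMP signalling, a branch of the TGFβ family, acts through SMAD proteins on the ID genes, which encode inhibitors of differentiation.

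Vehicle libraries held 58360888 to 63731156 counts and Aramchol libraries 52279922 to 69421963, and mitochondrially encoded genes took 8.13 to 9.45% of the counts of these 6 libraries. No replicates of a group were duplicates of each other. On principal components of the 6 libraries alone, the first component (29.1% of the variance) set the libraries numbered 3 (36.0 for vehicle and 27.9 for Aramchol) apart from those numbered 1 and 2 (-27.3 to -3.23). The second component (24.3%) separated vehicle (17.5 to 21.5) from Aramchol (-35.3 to -2.92). The sources used here do not give what the number 3 stands for. Results are therefore given from a fit with 1 mean per group and, where the call differs, also from a fit with an added term for the 4 libraries numbered 3. Levels are in CPM (a gene's counts relative to the library's total, on the usual scale, with totals adjusted between libraries by the TMM method) and in the order of replicates 1, 2 and 3. A gene was called when its Benjamini-Hochberg adjusted p over all genes tested was under 0.05 in edgeR's quasi-likelihood test.

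Aramchol alone raised genes of amino acid import and metabolism, the transcription factor gene ATF4, and genes of cholesterol synthesis and transport. The largest rises among called genes were in the cystine importer gene SLC7A11 (2.94-fold), the hormone gene ADM2 (2.66-fold), the glutathione-degrading enzyme gene CHAC1 (2.65-fold), PAX8-AS1 (2.11-fold) and the asparagine synthetase gene ASNS (2.05-fold). The largest fall was in CPLX1, a regulator of vesicle exocytosis (2.12-fold lower), followed by the BMP-responsive gene ID3 (1.88-fold lower) and the secreted glycoprotein gene CHI3L1 (1.73-fold lower). In all, 77 genes were called, which is 0.357% of those tested, 51 higher (0.236%) and 26 lower (0.121%). Of the 77, 70 were protein coding genes, and 6 changed at least 2-fold. The smallest change among called genes was 0.22 on the log2 scale, and the median over all genes tested was -0.01. For each of the 77 the 3 Aramchol libraries lay on 1 side of the 3 vehicle libraries, above in the 51 rises and below in the 26 falls. Of all genes tested, 7.74% had all Aramchol libraries above and 8.26% all below.

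The fit with a term for the libraries numbered 3 called 538 genes (2.49%), 295 higher (1.37%) and 243 lower (1.13%), and all 77 genes of the first fit were among them. Without Vehicle replicate 3 the first fit called 611 genes (2.74%), 222 higher and 389 lower, and from the libraries numbered 1 and 2 alone it called 1544 (7.09%), 704 higher and 840 lower. With upper quartile scaling it called 37 genes higher and 38 lower, so that rises did not outnumber falls under every scaling. In bulk RNA such as this, fewer cells of a kind and less RNA per cell cannot be told apart.

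**Figure D1:**
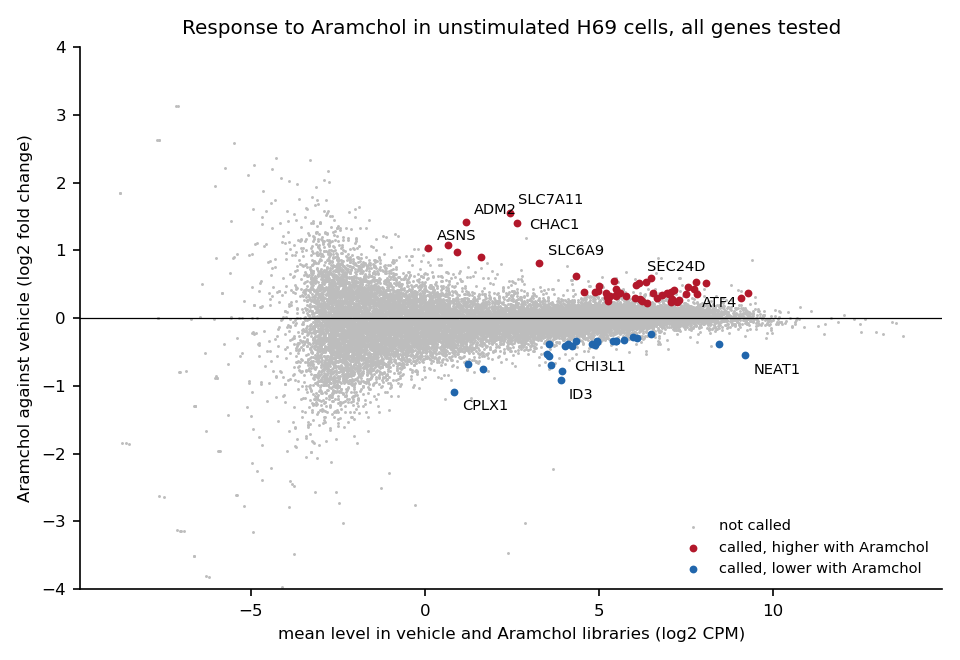
Each point is a gene tested, with its mean level over the vehicle and Aramchol libraries on the x axis (log2 CPM) and its log2 fold change on the y axis. The largest of the 51 called rises (red) and 26 called falls (blue) are in genes of low level, with SLC7A11, CHAC1, ADM2 and ASNS above 0 and CPLX1 below it. The 12 genes at 0 in both groups are not drawn.

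Among the transcription factors and regulators of the integrated stress response, ATF4 itself rose. Its level was 186, 187 and 167 CPM in the vehicle libraries and 243, 238 and 249 CPM in the Aramchol libraries. Every Aramchol library was above every vehicle library, and the change of 0.43 on the log2 scale (SE 0.05) had an adjusted p of 0.00248 (edgeR). ATF4 (ENSG00000128272) lies on chromosome 22, 39519695 to 39522683, plus strand, in GRCh38. CEBPG, which encodes a partner of ATF4 in DNA binding, was at 25.02, 26.9 and 28.6 CPM in vehicle and 35.4, 37.5 and 38.9 CPM with Aramchol, again without overlap (log2 fold change 0.48, edgeR adjusted p = 0.00440). TRIB3, which encodes a pseudokinase that feeds back on ATF4, was at 39.7, 37.1 and 29.5 CPM in vehicle and 47.8, 51.3 and 56.5 CPM with Aramchol (log2 fold change 0.55, edgeR adjusted p = 0.0231).

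Of 22 tested members of this list 3 were called higher and 0 lower, against 0.236 and 0.121% of all genes. The median log2 fold change was 0.21. With the term for the libraries numbered 3, 8 were called higher and 0 lower, against 1.37 and 1.13% of all genes. The 5 added genes were PPP1R15B, EIF2AK3, STC2, EIF2AK2 and SESN2. PPP1R15B encodes a phosphatase subunit that acts on eIF2α, and EIF2AK3 an ER stress kinase. STC2 encodes a secreted glycoprotein, EIF2AK2 an interferon-induced kinase of eIF2α and SESN2 an inhibitor of growth signalling. STC2 was at 63.1, 57.8 and 37.1 CPM in vehicle and 77.1, 78.9 and 80.8 CPM with Aramchol (edgeR adjusted p = 0.0823, and 0.0116 with the term). Vehicle replicate 3 was the lowest of the 6 libraries for STC2. Other members were not called in either fit. The log2 fold change of the proapoptotic factor gene DDIT3 was 0.28 (edgeR adjusted p = 0.425), and the values were -0.01 for ATF3, 0.10 for ATF5 and -0.02 for GDF15.

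Amino acid transporters held the gene with the largest rise. SLC7A11 (ENSG00000151012, chromosome 4, 138164097 to 138242349, minus strand), which imports cystine in exchange for glutamate, was at 2.47, 2.88 and 2.98 CPM in vehicle and 7.69, 6.95 and 9.85 CPM with Aramchol. The lowest Aramchol library was far above the highest vehicle library, and the log2 fold change was 1.55 (SE 0.17, edgeR adjusted p = 0.00131). SLC3A2, the chain that SLC7A11 and SLC7A5 share for their place in the membrane, was at 79.9, 77.7 and 60.3 CPM in vehicle and 118, 114 and 95.4 CPM with Aramchol. The groups did not overlap, although the library numbered 3 was the lowest of each group, and the log2 fold change was 0.59 (edgeR adjusted p = 0.0159). SLC7A5, which imports large neutral amino acids, was at 75.2, 73.3 and 53.6 CPM in vehicle and 96.5, 96.3 and 99.7 CPM with Aramchol (log2 fold change 0.53, edgeR adjusted p = 0.0459).

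The glycine transporter gene SLC6A9 was at 6.53, 5.90 and 8.93 CPM in vehicle and 11.8, 11.7 and 13.9 CPM with Aramchol (log2 fold change 0.81, edgeR adjusted p = 0.0307). SLC38A2, a transporter of small neutral amino acids that cells raise when these run short, was at 536, 557 and 541 CPM in vehicle and 709, 724 and 687 CPM with Aramchol (log2 fold change 0.38, edgeR adjusted p = 0.0104). Both had no overlap between the groups. Of 22 tested transporter genes 5 were called higher and 0 lower (median log2 fold change 0.20), and 10 and 0 with the term for the libraries numbered 3. Over all genes 0.236% were called higher by group means and 1.37% with the term. The 5 genes called with the term alone were SLC6A6, SLC7A1, SLC38A1, SLC1A5 and SLC1A4, at log2 fold changes of 0.28, 0.26, 0.25, 0.25 and 0.22. SLC43A2, an importer of large neutral amino acids that is not in the list and was chosen after its values were seen, was called lower (-0.34, edgeR adjusted p = 0.0307), though not without Vehicle replicate 1, Aramchol replicates 1 or 2, TGFβ replicates 1 or 2 or TGFβ + Aramchol replicate 2 (up to 0.172).

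**Figure D2:**
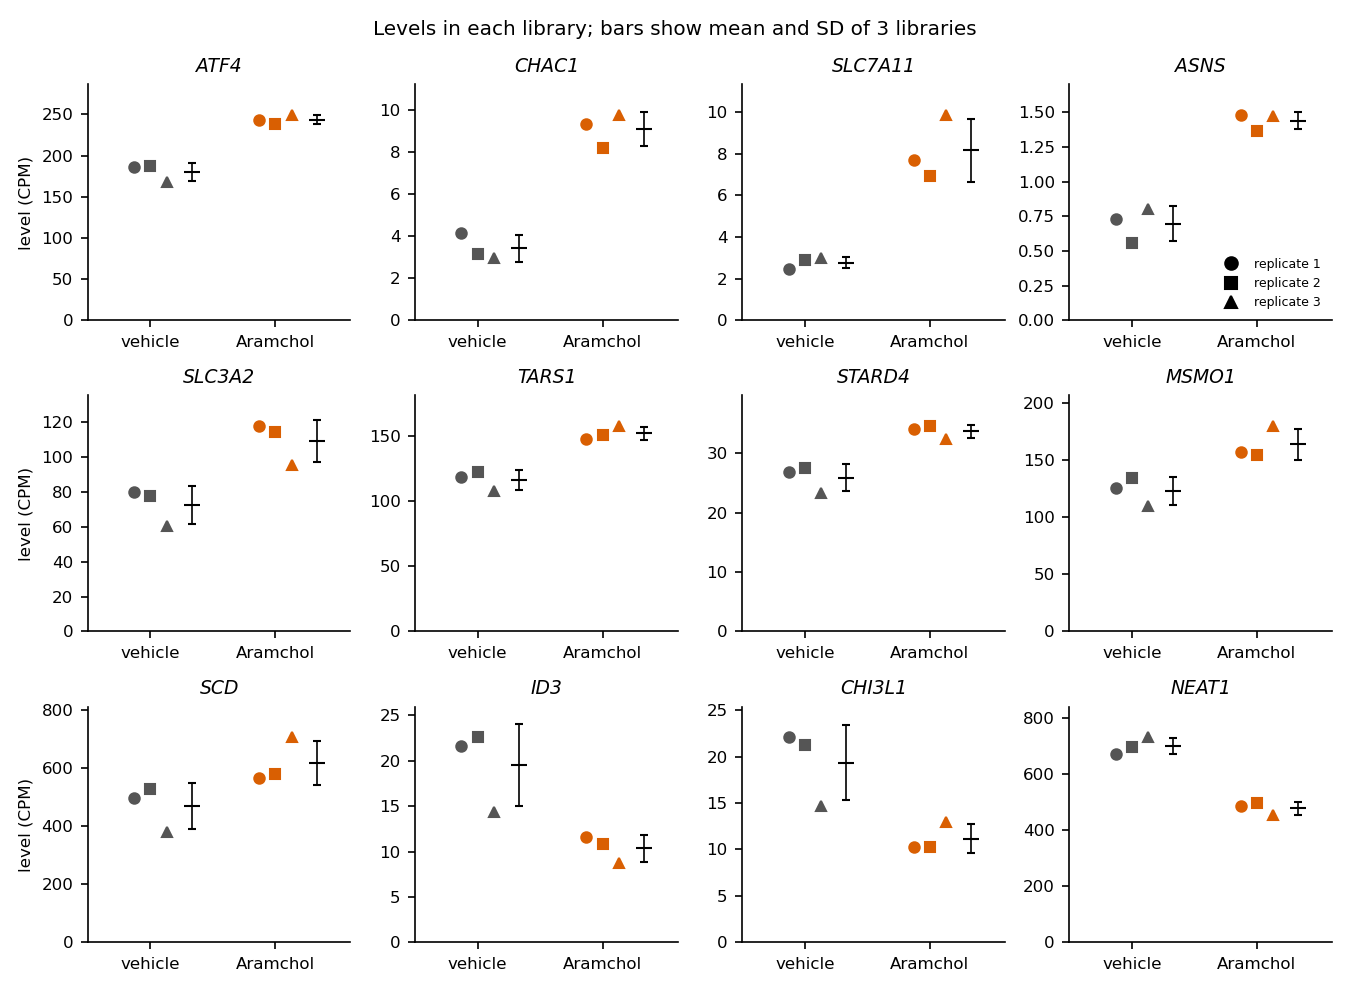
Levels in CPM of 12 genes in each of the 6 libraries, with vehicle in grey and Aramchol in orange and a symbol for each replicate number; bars give the mean and SD of 3 libraries. The groups do not overlap in any panel, and Vehicle replicate 3 is well below the other vehicle libraries for SCD, SLC3A2, ID3 and CHI3L1.

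Among enzymes of amino acid and one-carbon synthesis, ASNS (ENSG00000070669, chromosome 7, 97851677 to 97872542, minus strand), which makes asparagine, was at 0.729, 0.560 and 0.806 CPM in vehicle and 1.48, 1.37 and 1.47 CPM with Aramchol. The gene was low in all libraries but did not overlap between the groups (log2 fold change 1.04, SE 0.19, edgeR adjusted p = 0.0307). The alanine aminotransferase gene GPT2 was at 33.9, 33.3 and 29.7 CPM in vehicle and 40.5, 42.6 and 41.7 CPM with Aramchol (log2 fold change 0.37, edgeR adjusted p = 0.0307). Of 24 tested members 2 were called higher and 0 lower (median 0.15), and 8 and 0 with the term. Over all genes the shares called higher were 0.236% and, with the term, 1.37%. PSAT1, an enzyme of serine synthesis, was at 41.3, 43.4 and 42.2 CPM in vehicle and 61, 63.1 and 78.6 CPM with Aramchol, with an adjusted p of 0.0603 by group means and 0.000253 with the term (edgeR). PHGDH, the first enzyme of that path, had 0.40 on the log2 scale (edgeR adjusted p = 0.299, and 0.00453 with the term). The mitochondrial folate enzyme gene MTHFD2 had 0.32 (edgeR adjusted p = 0.146, and 0.00105). For these 3 genes the term for the libraries numbered 3, fitted over all 4 groups, was 0.33, 0.36 and 0.21 on the log2 scale. Among the vehicle libraries of PSAT1 replicate 3 lay between the other two. ALDH1L2, CTH and MTHFD1L were the other members called with the term alone.

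Of 20 tested genes for aminoacyl tRNA synthetases, which attach amino acids to their tRNAs, 3 were called higher and 0 lower (median 0.10), with small differences and little spread between libraries. TARS1, for threonine, was at 118, 122 and 108 CPM in vehicle and 148, 151 and 157 CPM with Aramchol (log2 fold change 0.39, SE 0.05, edgeR adjusted p = 0.00518). MARS1, for methionine, was at 114, 108 and 106 CPM in vehicle and 139.8, 140.2 and 144 CPM with Aramchol (log2 fold change 0.37, edgeR adjusted p = 0.0107). GARS1, for glycine, was at 164, 165 and 151 CPM in vehicle and 203, 201 and 208 CPM with Aramchol (log2 fold change 0.35, edgeR adjusted p = 0.0231). None of the 3 genes overlapped between the groups. With the term 6 of the 20 were called higher and 0 lower, which added YARS1, CARS1 and WARS1 for tyrosine, cysteine and tryptophan. Beside these counts, 0.236% of all genes were called higher by group means and 1.37% with the term. XPOT, which carries tRNAs out of the nucleus and was chosen after its values were seen, was also called higher (0.24, edgeR adjusted p = 0.0484), but of the 12 fits without 1 library it was called in 1, the one without Vehicle replicate 3 (adjusted p up to 0.167).

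Taking the 4 lists of stress factors, transporters, synthesis enzymes and synthetases as 1, 88 distinct genes were tested. Like the other lists here, they were chosen with earlier results of these data known. The shares below describe these lists and are no independent support for a response of the pathway. Of these 13 were called higher and 0 lower, or 14.8% against 0.357% of all genes, and 32 higher and 0 lower with the term, or 36.4% against 2.49%. In 41 of the 88 genes the Aramchol libraries were all above the vehicle libraries and in 2 all below, against 7.74 and 8.26% of all genes tested. The median log2 fold change of the 88 was 0.15, against -0.01 for all genes. Without Vehicle replicate 3, 20 were called higher and 1 lower (0.997 and 1.75% of all genes), and from the libraries numbered 1 and 2 alone 31 and 2 (3.23 and 3.86% of all genes). Of the 13 genes, 4 (SLC7A11, ATF4, CEBPG and TARS1) were called without each of the 12 libraries in turn by group means. The other 9 each missed the threshold without 1 or more of Vehicle replicates 1 and 2 and Aramchol replicates 1, 2 and 3, and 4 of them (ASNS, SLC6A9, SLC7A5 and GPT2) also without TGFβ replicate 2. SLC6A9, SLC7A5 and GPT2 missed it without TGFβ + Aramchol replicate 2 too, and SLC7A5 was called in 2 of the 12 cases, without Vehicle replicate 3 or TGFβ + Aramchol replicate 3. The highest adjusted p was 0.167, for SLC7A5 and GPT2 without Aramchol replicate 2 (edgeR). With the term for the libraries numbered 3, the 13 genes were called without each library in turn.

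Promoters of these genes were searched for the composite site that ATF4 and C/EBP factors are known to bind, since several genes of these lists rose together. The windows reached from 250 bases before to 50 bases after 1 transcript start per gene, the first listed in a table of promoters from RefSeq, GRCh38.p14, and 62 of the 77 called genes had an entry, 44 higher and 18 lower. The letters TGATGNAA, on either strand, were in 5 of the 44 promoters of genes called higher (11.4%) and in 0 of the 18 of genes called lower, against 1.81% of 13051 promoters of genes tested and 3.67% of all 27305. The 5 genes were CHAC1, ASNS, SLC3A2, TARS1 and MARS1. The sites are shown with 30 bases each, 5′ to 3′ on the minus strand, and the capitals mark the motif. They lie at chr15:40953251-40953280 (CHAC1), chr7:97872458-97872487 (ASNS), chr11:62881719-62881748 (SLC3A2), chr5:33440956-33440985 (TARS1) and chr12:57488053-57488082 (MARS1). From that transcript start, which can lie inside the gene span of the count table's annotation, the motif begins at -209 in CHAC1, -68 in ASNS, 38 in SLC3A2, 3 in TARS1 and -4 in MARS1.
CHAC1: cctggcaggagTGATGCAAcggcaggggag
ASNS: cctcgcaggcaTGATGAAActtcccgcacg
SLC3A2: ggagcTGATGTAAggagtcctgcacattac
TARS1: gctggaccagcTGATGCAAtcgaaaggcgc
MARS1: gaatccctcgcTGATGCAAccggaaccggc
The motif lies on the strand of the gene in ASNS and on the opposite strand in the other 4. A match of letters does not show binding, and these libraries do not measure it.

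The 250 bases before that start are given for CHAC1 and ASNS, the most strongly raised of the 5, with the motif in capitals in the direction of the gene. They cover chr15:40953221-40953470 on the plus strand for CHAC1 and chr7:97872409-97872658 on the minus strand for ASNS, in GRCh38.p14.
CHAC1: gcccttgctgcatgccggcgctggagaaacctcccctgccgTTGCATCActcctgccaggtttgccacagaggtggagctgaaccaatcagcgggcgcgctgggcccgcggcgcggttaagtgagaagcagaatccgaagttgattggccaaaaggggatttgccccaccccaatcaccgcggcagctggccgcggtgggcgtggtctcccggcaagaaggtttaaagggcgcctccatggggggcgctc
ASNS: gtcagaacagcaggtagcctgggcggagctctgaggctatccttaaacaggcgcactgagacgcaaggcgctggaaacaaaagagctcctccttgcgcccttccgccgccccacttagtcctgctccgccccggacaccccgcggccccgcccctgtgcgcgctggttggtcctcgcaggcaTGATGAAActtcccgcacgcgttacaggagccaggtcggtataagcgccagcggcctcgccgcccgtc
The core of the antioxidant response element, TGACNNNGC, was in 12 of the 44 promoters of genes called higher (27.3%) and 2 of the 18 of genes called lower (11.1%), against 14.8% of promoters of genes tested. The core of the BMP response element of the ID genes, TGGCGCC, was in 4 of 44 (9.09%) and 1 of 18 (5.56%), against 8.79%. SLC3A2 held all 3 motifs. SLC7A11 and ATF4 were not among the 62 genes matched.

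Glutathione turnover was represented by CHAC1 and SLC7A11 among the called genes. CHAC1 (ENSG00000128965, chromosome 15, 40952962 to 40956512, plus strand), a target of ATF4 that breaks down glutathione, was at 4.16, 3.18 and 2.96 CPM in vehicle and 9.35, 8.19 and 9.76 CPM with Aramchol. The lowest Aramchol library was well above the highest vehicle library (log2 fold change 1.41, SE 0.14, edgeR adjusted p = 0.000742). No other member was called higher: of 26 genes of glutathione turnover and ferroptosis, a form of death by lipid peroxidation, these 2 were called higher and 0 lower, with a median log2 fold change of -0.04. Over all genes 0.236% were called higher and 0.121% lower. With the term, GGT5, which cleaves glutathione outside the cell, was called lower, at 124, 111 and 52.8 CPM in vehicle and 71.4, 75.5 and 53.3 CPM with Aramchol (edgeR adjusted p = 0.373, and 0.0338 with the term). For GGT5 the library numbered 3 was the lowest of each group, and the groups overlapped.

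Targets of NRF2, the transcription factor of the oxidative stress response, gave 1 call among 26 genes, and that was SLC7A11. NQO1 was at 64.7, 64.3 and 64.9 CPM in vehicle and 61.9, 58.1 and 57.8 CPM with Aramchol (log2 fold change -0.13, edgeR adjusted p = 0.504), and HMOX1 had -0.23 on the log2 scale (edgeR adjusted p = 0.349). Of 30 genes of ER chaperones, folding and ER-associated degradation, 0 were called by group means, and with the term SELENOS and ERN1 were called higher and MANF lower. The ER chaperone gene HSPA5 was at 1037, 1141 and 748 CPM in vehicle and 883, 913 and 718 CPM with Aramchol (log2 fold change -0.22, edgeR adjusted p = 0.508), and these groups overlapped. Of 17 heat shock genes, HSPH1 was called with the term alone (0.18, edgeR adjusted p = 0.0308). The medians of these 3 lists were 0.04, -0.02 and 0.01. Beside these counts, 0.357% of all genes tested were called by group means and 2.49% with the term.

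Genes of cholesterol synthesis and transport were the other group with several rises. The sterol transporter gene STARD4 was at 26.7, 27.6 and 23.2 CPM in vehicle and 34.1, 34.5 and 32.4 CPM with Aramchol (log2 fold change 0.38, edgeR adjusted p = 0.0302). MSMO1, an oxidase that removes methyl groups from sterol intermediates, was at 126, 134 and 110.0 CPM in vehicle and 158, 155 and 179.9 CPM with Aramchol (log2 fold change 0.41, SE 0.08, edgeR adjusted p = 0.0484). SC5D, a desaturase late in cholesterol synthesis, was at 35.3, 35.7 and 36.1 CPM in vehicle and 41.4, 43.9 and 48.4 CPM with Aramchol (log2 fold change 0.32, SE 0.06, edgeR adjusted p = 0.0338). Vehicle replicate 3 was the lowest of the 6 libraries for STARD4 and MSMO1 but not for SC5D, and the groups did not overlap for any of the 3 genes.

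Of 27 tested genes of cholesterol synthesis and SREBP2 targets 5 were called higher, these 3 among them, and 0 lower, 25 had a positive log2 fold change, and the median was 0.26 against -0.01 for all genes. With the term 11 were called higher and 0 lower, with IDI1, SQLE, INSIG1 and CYP51A1 among those added. Over all genes 0.236% were called higher by group means and 1.37% with the term. SQLE, which makes squalene epoxide, was at 149, 154 and 117 CPM in vehicle and 174, 177 and 200.1 CPM with Aramchol (edgeR adjusted p = 0.0755, and 0.0124 with the term). INSIG1, which holds SREBPs in the ER, was at 146, 154 and 119 CPM in vehicle and 182, 177 and 226 CPM with Aramchol (edgeR adjusted p = 0.0966, and 0.0124 with the term). HMGCS1, an early synthase of the pathway, was not called in either fit, at 114, 117 and 78.4 CPM in vehicle and 122, 124 and 149.8 CPM with Aramchol (edgeR adjusted p = 0.307, and 0.140 with the term). In each of these 3 genes the gap between the groups was widest between the libraries numbered 3.

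The size of the cholesterol response depended on those libraries. From the libraries numbered 1 and 2 alone the median of the list was 0.09, with 9 genes called higher and 1 lower (3.23 and 3.86% of all genes). Without Vehicle replicate 3 the median was 0.19, with 6 higher and 0 lower (0.997 and 1.75% of all genes). In the libraries numbered 1 and 2 the log2 fold change was 0.34 for STARD4, 0.27 for MSMO1 and 0.27 for SC5D (edgeR adjusted p = 0.00126, 0.00170 and 0.00734). By group means STARD4 missed the threshold without Vehicle replicate 1, Aramchol replicates 1 or 2 or TGFβ replicate 2 (up to 0.167), and MSMO1 and SC5D without 10 and 9 of the 12 libraries (up to 0.134 and 0.155, edgeR). RNF145, a ubiquitin ligase of the ER membrane, was also called higher and was chosen after its values were seen. It was at 201, 204 and 192 CPM in vehicle and 257, 253 and 252 CPM with Aramchol (log2 fold change 0.35, edgeR adjusted p = 0.00440).

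SCD (ENSG00000099194, chromosome 10, 100347233 to 100364826, plus strand), the enzyme that Aramchol acts on, was at 499, 530.1 and 380.5 CPM in vehicle and 567, 582 and 707 CPM with Aramchol. All Aramchol libraries were above all vehicle libraries, but Vehicle replicate 3 and Aramchol replicate 3 lay farther from the other group than their replicates did. The log2 fold change of 0.40 (SE 0.10) was not called by group means (edgeR adjusted p = 0.139) and was called with the term for the libraries numbered 3 (0.0329) and by DESeq2 (0.0175). From the libraries numbered 1 and 2 alone the change was 0.16 (edgeR adjusted p = 0.0486). Of 12 desaturase and elongase genes 0 were called by group means, with FADS1, FADS2, ELOVL6 and SCD5 at log2 fold changes of 0.18, 0.20, 0.24 and -0.03. Of 21 genes of fatty acid synthesis 0 were called by group means and 5 higher with the term (1.37% of all genes), INSIG1, LPIN1, ACSL3, ACACA and PLIN2. The fatty acid synthase gene FASN was at 758, 688 and 482 CPM in vehicle and 737, 767 and 898 CPM with Aramchol (log2 fold change 0.32, edgeR adjusted p = 0.371).

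Other lipid pathways gave few calls. The shares of all genes called, 0.357% by group means and 2.49% with the term, would leave few in lists of this size anyway. Of 14 genes of LXR, the oxysterol receptor, its targets and sterol efflux, 0 were called by group means and NPC1, a cholesterol exporter of the lysosome, with the term (0.23, edgeR adjusted p = 0.0238). The cholesterol efflux pump gene ABCA1 was at 32.1, 34.3 and 35.2 CPM in vehicle and 33.2, 35.2 and 35.9 CPM with Aramchol, which overlapped. Of 34 genes of PPAR receptors and fatty acid oxidation 0 were called by group means, and ANGPTL4 and PLIN2 were higher with the term. ANGPTL4, an inhibitor of lipoprotein lipase, was at 5.09, 4.68 and 3.87 CPM in vehicle and 13.4, 12.3 and 5.21 CPM with Aramchol. Aramchol replicates 1 and 2 were well above vehicle and replicate 3 just above it (log2 fold change 1.18, edgeR adjusted p = 0.125, and 0.00162 with the term). PDK4, which restrains glucose oxidation, was at 10.9, 10.9 and 12.5 CPM in vehicle and 19.3, 17.6 and 13.5 CPM with Aramchol, again with replicate 3 the lowest of the Aramchol libraries (edgeR adjusted p = 0.244, and 0.0527 with the term). None of 9 tested bile acid and FXR genes was called in either fit, of 21 in the list.

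Among the genes that fell, CPLX1 (ENSG00000168993, chromosome 4, 784957 to 826129, minus strand) was at 2.79, 2.44 and 2.01 CPM in vehicle and 1.02, 1.30 and 1.07 CPM with Aramchol (log2 fold change -1.09, SE 0.19, edgeR adjusted p = 0.0292). ID3 (ENSG00000117318, chromosome 1, 23557926 to 23559501, minus strand), a dominant negative partner of helix-loop-helix factors, was at 21.7, 22.6 and 14.4 CPM in vehicle and 11.6, 10.9 and 8.73 CPM with Aramchol. In ID3 the library numbered 3 was the lowest of each group, and no Aramchol library reached the vehicle range (log2 fold change -0.91, SE 0.16, edgeR adjusted p = 0.0231). ID1 was at 42.1, 41.2 and 27.8 CPM in vehicle and 30.2, 32.4 and 23.2 CPM with Aramchol, and these overlapped (edgeR adjusted p = 0.351, and 0.0434 with the term). ID2 had -0.17 on the log2 scale (edgeR adjusted p = 0.666). Of 26 tested ID genes and genes of BMP signalling 0 were called higher and 1 lower (median -0.07), against 0.236 and 0.121% of all genes. With the term 3 were called lower (1.13% of all genes), ID3, ID1 and ATOH8, a helix-loop-helix factor that answers to BMP signalling (-0.35). The term also called 1 gene higher, the secreted BMP antagonist gene NOG, at 0.109, 0.148 and 0.129 CPM in vehicle and 0.384, 0.260 and 0.461 CPM with Aramchol (edgeR adjusted p = 0.0755, and 0.0210 with the term). NOG was very low in all libraries but did not overlap between the groups.

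CHI3L1, a chitinase-like protein secreted in inflammation, was at 22.1, 21.2 and 14.7 CPM in vehicle and 10.2, 10.3 and 13 CPM with Aramchol (log2 fold change -0.79, SE 0.16, edgeR adjusted p = 0.0485). The libraries numbered 3 lay closest to each other, and the call was lost without Vehicle replicates 1 or 2, Aramchol replicates 1 or 2, TGFβ replicates 1 or 2 or TGFβ + Aramchol replicates 1, 2 or 3 (adjusted p up to 0.271, edgeR). GFRA1, a receptor for the growth factor GDNF, was at 16.6, 17.1 and 11.7 CPM in vehicle and 8.99, 8.88 and 10.3 CPM with Aramchol (log2 fold change -0.69, edgeR adjusted p = 0.0307). The semaphorin gene SEMA6C had -0.56 on the log2 scale (edgeR adjusted p = 0.0307). NEAT1 (ENSG00000245532, chromosome 11, 65422774 to 65445540, plus strand), the long noncoding RNA that builds paraspeckles in the nucleus, was at 671, 696 and 729.9 CPM in vehicle and 485, 494 and 452 CPM with Aramchol. Its groups were clearly apart, with a log2 fold change of -0.55 (SE 0.07, edgeR adjusted p = 0.00223), and it was the fall that was called without each of the 12 libraries in turn.

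GDAP1, a protein of the outer mitochondrial membrane, fell by 0.42 on the log2 scale, from 18.7 ± 0.318 to 14.01 ± 0.137 CPM (mean ± SD, n = 3 libraries per group, edgeR adjusted p = 0.0140). The other falls by rule were in a gene without a symbol, ENSG00000288022 (-0.76), and in the pseudogenes RAB11FIP1P1 (-0.68) and CRYZL2P (-0.53), whose reads may be shared with their parent genes. These 3 were called in 5, 1 and 5 of the 12 fits without 1 library (adjusted p up to 0.167, 0.213 and 0.170, edgeR). Of the 10 falls named by rule NEAT1 alone kept its call without each library. GDAP1 lost it without Vehicle replicate 2 or Aramchol replicates 1 or 2, SEMA6C without Vehicle replicate 2, Aramchol replicates 1 or 2, TGFβ replicate 2 or TGFβ + Aramchol replicate 2, ID3 and CPLX1 without Vehicle replicates 1 or 2 or Aramchol replicates 1, 2 or 3, and GFRA1 without Vehicle replicates 1 or 2, Aramchol replicates 1 or 2 or TGFβ replicate 2. The adjusted p rose to at most 0.167 for SEMA6C and GFRA1, 0.136 for CPLX1, 0.117 for ID3 and 0.0968 for GDAP1 (edgeR). With the term for the libraries numbered 3, these 5 genes were called without each library in turn, and CHI3L1 in 10 of 12 cases.

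TXNIP, which binds thioredoxin and answers to glucose, and the lysosomal protease gene CTSF were also called lower and were chosen after their values were seen. TXNIP was at 360.0, 369 and 463 CPM in vehicle and 307, 303 and 299 CPM with Aramchol (log2 fold change -0.39, edgeR adjusted p = 0.0485). CTSF was at 34.8, 33.7 and 32.2 CPM in vehicle and 25.1, 24.4 and 26.8 CPM with Aramchol (log2 fold change -0.40, edgeR adjusted p = 0.0140). Neither gene overlapped between the groups. TXNIP was called in 2 of the 12 fits without 1 library, those without Vehicle replicates 1 or 3 (adjusted p up to 0.208, edgeR), and CTSF in all but those without Vehicle replicates 1 or 2 or Aramchol replicates 1 or 2 (up to 0.105). No gene of the list of 34 lysosome and autophagy genes was called in either fit.

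Rises outside the lists described above included ADM2 (ENSG00000128165, chromosome 22, 50481543 to 50486440, plus strand), a peptide hormone of the adrenomedullin family. It was at 1.40, 1.35 and 0.949 CPM in vehicle and 3.21, 3.17 and 3.44 CPM with Aramchol, and no library of one group came near the other (log2 fold change 1.41, SE 0.17, edgeR adjusted p = 0.00248). CREB5, a transcription factor of the CREB family, was at 1.35, 1.12 and 1.38 CPM in vehicle and 2.78, 2.11 and 2.75 CPM with Aramchol (log2 fold change 0.98, edgeR adjusted p = 0.0292). PAX8-AS1, a long noncoding RNA on the strand opposite PAX8, had 1.08 on the log2 scale (edgeR adjusted p = 0.00866), and MINAR1 had 0.91 (0.0362). The sources used here do not give the strand setting of the counting, so reads of PAX8-AS1 and PAX8 may not be told apart. H2AC6 (0.62, edgeR adjusted p = 0.0452) belongs to the histone multigene family, whose reads may be split between copies.

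Of these rises ADM2 and PAX8-AS1 were called without each of the 12 libraries in turn. CREB5 was not called without Vehicle replicates 1 or 2 or Aramchol replicates 1 or 3, MINAR1 without Vehicle replicates 1 or 2, Aramchol replicates 1 or 2, TGFβ replicates 1, 2 or 3 or TGFβ + Aramchol replicate 2, and H2AC6 in 1 of the 12 cases, the omission of Vehicle replicate 3 (adjusted p up to 0.150, 0.195 and 0.209, edgeR). SEC24D, a coat protein of the vesicles that leave the ER, shared the smallest adjusted p of the comparison with CHAC1 (0.000742, edgeR) and was chosen after its values were seen. It was at 58.2, 59.6 and 57.8 CPM in vehicle and 85.04, 81.7 and 84.2 CPM with Aramchol, a log2 fold change of 0.51 with an SE of 0.05. The spread within each group was small beside the difference.

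Of 19 tested clock genes 3 were called higher and 0 lower, against 0.236 and 0.121% of all genes. The median of the list was 0.06. PER1, a repressor in the circadian loop, was at 56.9, 59.3 and 50.98 CPM in vehicle and 77.2, 82.1 and 75 CPM with Aramchol (log2 fold change 0.49, SE 0.06, edgeR adjusted p = 0.00343). CRY1, its partner, had 0.26 on the log2 scale (edgeR adjusted p = 0.0485) and BHLHE40, a repressor that also answers to TGFβ, had 0.29 (0.0246). PER2, NR1D1 and DBP were not called, at log2 fold changes of 0.18, 0.02 and -0.28. PER1 was called without each of the 12 libraries in turn. BHLHE40 missed the threshold without Vehicle replicates 1 or 2, Aramchol replicates 1, 2 or 3 or TGFβ replicate 2 (up to 0.167, edgeR). CRY1 was called in 1 of the 12 cases, when Vehicle replicate 3 was left out (otherwise up to 0.239). TSC22D3, a glucocorticoid-responsive gene chosen after its values were seen, was called higher too (0.40, edgeR adjusted p = 0.0159), though not without Vehicle replicates 1 or 2 or Aramchol replicate 2 (up to 0.0921).

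Targets of TGFβ signalling, matrix genes and epithelial genes gave few calls with Aramchol alone by group means or with the term. Of all genes tested 0.357% were called by group means and 2.49% with the term, so lists of this size would hold few in any case. Of 21 direct TGFβ targets BHLHE40 was called higher and 0 lower, with a median log2 fold change of -0.05. From the libraries numbered 1 and 2 alone 2 were called higher and 7 lower (3.23 and 3.86% of all genes). Without Vehicle replicate 3 the counts were 1 and 3 (0.997 and 1.75% of all genes), with a median of -0.18. Of 30 matrix genes 0 were called by group means. The collagen gene COL1A1 was at 1136, 1083 and 955 CPM in vehicle and 999.5, 1022 and 1228 CPM with Aramchol, and FN1, for fibronectin, at 666, 685 and 627 CPM in vehicle and 643, 657 and 676 CPM with Aramchol. The groups overlapped for both genes, and the adjusted p was 0.953 and 0.997 (edgeR). TNC, a matrix glycoprotein, was called higher with the term alone (0.41, edgeR adjusted p = 0.288, and 0.0334 with the term). Of 28 epithelial junction genes 0 were called by group means, and with the term DSP was higher (0.26) and the epithelial factor gene ELF3 lower (-0.36). JAG1, a Notch ligand, was called higher, at 64.5, 65.7 and 64.5 CPM in vehicle and 80.4, 81.1 and 76.3 CPM with Aramchol (log2 fold change 0.29, edgeR adjusted p = 0.0123), the only call among 26 Notch and Wnt targets by group means. Without Vehicle replicates 1 or 2 or Aramchol replicates 1 or 2 it missed the threshold (up to 0.0941).

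Secreted cytokines and chemokines were lower on balance in the list's median (-0.13), with 0 of 33 called higher and 1 lower, CHI3L1. With the term 6 were called lower and 0 higher, CXCL6, CX3CL1, CXCL1, CXCL5 and CCL2 beside CHI3L1. Over all genes 0.121% were called lower by group means and 1.13% with the term. The neutrophil chemokine gene CXCL6 was at 21.02, 20.01 and 16.5 CPM in vehicle and 14.3, 13.5 and 12.02 CPM with Aramchol (edgeR adjusted p = 0.0592, and 0.00144 with the term). CXCL1 was at 83.2, 77.5 and 44.7 CPM in vehicle and 55.5, 53.3 and 36.9 CPM with Aramchol (edgeR adjusted p = 0.322, and 0.00570). CXCL6 did not overlap between the groups, whereas for CXCL1 Vehicle replicate 3 lay below Aramchol replicates 1 and 2. In the term itself, 17 of the 33 genes were lower and 2 higher in the libraries numbered 3, against 7.34% lower and 5.29% higher of all genes tested. IL6 showed this without a difference by treatment, at 65.5, 67.1 and 30.1 CPM in vehicle and 65.5, 64.98 and 25.6 CPM with Aramchol (edgeR adjusted p = 0.965). Among 29 growth factor receptors and ligands GFRA1 was called lower, and with the term the EGF receptor ligand genes AREG (0.48) and EREG (0.48) and the receptor gene MET (0.25) were called higher.

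Interferon-stimulated genes differed between the replicate numbers. MX1, an antiviral GTPase, was at 516, 473 and 451 CPM in vehicle and 1042, 1038 and 517 CPM with Aramchol. Aramchol replicates 1 and 2 stood far above vehicle while replicate 3 was level with Vehicle replicate 1 (log2 fold change 0.85, edgeR adjusted p = 0.181, and 0.00776 with the term). IRF7, which drives interferon transcription, was at 38.4, 35.7 and 32.6 CPM in vehicle and 64.5, 59.7 and 37.1 CPM with Aramchol, and OAS1, a sensor of double-stranded RNA, at 95.1, 85.8 and 83.5 and 161, 157 and 80.4 CPM. A similar picture held in the summed level of the 48 genes of the list, at 8118, 7872 and 8101 CPM in vehicle and 10703, 10444 and 7317 CPM with Aramchol. By group means 0 of the 48 were called, and 40 had a positive log2 fold change (median 0.31). With the term 12 were called higher and 0 lower, against 1.37 and 1.13% of all genes. The term fits 1 shift shared by all groups. It does not model a rise that is present in Aramchol replicates 1 and 2 and absent in replicate 3. From the libraries numbered 1 and 2 alone 34 were called higher and 1 lower (3.23 and 3.86% of all genes). Without Vehicle replicate 3 the counts were 1 and 0 (0.997 and 1.75% of all genes). In the term itself 29 of the 48 were lower in the libraries numbered 3, against the 7.34% of all genes. What sets Aramchol replicate 3 apart was not tested.

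Small noncoding RNAs set Vehicle replicates 1 and 2 apart. RMRP, the RNA of the RNase MRP complex, was at 6.67, 21.6 and 0.777 CPM in vehicle and 1.11, 0.848 and 0.669 CPM with Aramchol, and the small nucleolar RNA gene SNORD3A at 8.10, 30.02 and 1.05 and 2.14, 1.52 and 1.20 CPM. Vehicle replicate 3 lay within or near the Aramchol range for both. They had the most negative log2 fold changes called with the term (-3.16 and -2.68), followed by RN7SL3 (-2.55), the RNA of the signal recognition particle, but were not called by group means (edgeR adjusted p = 0.0970, 0.139 and 0.146). Other genes named with the term alone were PADI2, which converts arginine to citrulline in proteins, at 4.67, 3.67 and 2.13 CPM in vehicle and 2.08, 1.46 and 1.10 CPM with Aramchol, and the tight junction gene CLDN11, at 2.33, 2.80 and 1.91 and 1.02, 0.916 and 1.32 CPM. The groups did not overlap in PADI2 or CLDN11. ULBP1, a stress-induced ligand of natural killer cells, was at 0.496, 0.511 and 0.705 CPM in vehicle and 1.37, 0.862 and 1.28 CPM with Aramchol (edgeR adjusted p = 0.0810, and 0.0246 with the term). DMBT1, a mucin-like protein of bile duct epithelium, was higher by 0.80, LINC01134 by 1.01 and ENSG00000280351 by 1.00 on the log2 scale.

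Proliferation and housekeeping lists gave few calls by group means or with the term. Few are to be found in lists of this size when 0.357% of all genes are called by group means and 2.49% with the term. By group means 0 of 32 genes of DNA replication, 27 of mitosis, 21 p53 targets, 31 of MAPK feedback and immediate early response, 33 of glycolysis and hypoxia, 23 YAP and TAZ targets, 12 metallothionein and metal response genes, 13 mitochondrially encoded and 40 ribosomal protein genes were called. In the mitosis list 23 of 27 values were positive with a median of 0.09, and the kinase gene AURKA was called with the term (0.21, edgeR adjusted p = 0.0272). In the ribosomal protein list 35 of 40 were negative with a median of -0.06. From the libraries numbered 1 and 2 alone 3.23% of all genes were called higher and 3.86% lower. The counts there, higher and lower, were 1 and 7 for YAP and TAZ targets and 0 and 8 for ribosomal protein genes. They were 1 and 6 for glycolysis and hypoxia and 0 and 5 for p53 targets. The other lists had 0 and 1 (DNA replication), 3 and 0 (mitosis), 2 and 0 (MAPK) and 0 and 2 (metal response and mitochondrially encoded, each). With the term BAX and FDXR were called lower and SESN2 higher among p53 targets (-0.21, -0.33 and 0.26). Among immediate early genes JUND, KLF6 and ETV5 were higher (0.31, 0.21 and 0.18) and KLF2 lower (-0.33). Among the others CCND1 (-0.22), TCF7 (-0.29), AMOTL2 (-0.26) and MT1E (-0.33) were lower and NT5E (0.27) higher. With the term CA9, EGLN3 and NDRG1, which hypoxia induces, were called lower at log2 fold changes of -0.58, -0.40 and -0.24. MT-CO1 (-0.27) and MT-CO3 (-0.23), subunits of cytochrome oxidase encoded in mitochondria, were also called lower with the term. Of the 32 histone genes H2AC6 was the gene called by group means, and H2BC12 and H2BC21 were added with the term. In all, 27 of the 77 called genes were in 1 of the 34 pathway lists or 6 marker lists, which held 889 tested genes, and 50 were in none.

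Markers of the labelled cell type were present. The bile duct keratin genes were at 706, 677 and 275 CPM (KRT7) and 33.4, 31.6 and 17.1 CPM (KRT19) in vehicle and at 569, 558 and 392 and 25.3, 28.9 and 23.2 CPM with Aramchol. The epithelial adhesion gene EPCAM was at 8.81, 7.72 and 6.73 and 8.55, 8.03 and 5.58 CPM, and the biliary transcription factor gene SOX9 at 9.80, 9.16 and 11.05 and 11.7, 10.6 and 11.7 CPM. Vehicle replicate 3 was the lowest vehicle library for KRT7, KRT19 and EPCAM, and the groups overlapped for all 4 genes. Of 20 cholangiocyte markers 15 passed the filter on low counts, CFTR, SPP1, TFF1 and SCTR were among those that did not, and 0 were called in either fit. Their summed level ran from 801 to 1308 CPM in vehicle and from 965 to 1116 CPM with Aramchol.

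Of the other lists, 0 of 9 hepatocyte, 10 fibroblast and stellate cell, 9 endothelial, 3 leukocyte and 9 keratinocyte markers tested were called by group means. With the term TF was called lower among the hepatocyte and PECAM1 higher among the endothelial markers. The filter was passed by 9 of 13 hepatocyte, 10 of 11 fibroblast and stellate cell and 9 of 10 endothelial markers. It was also passed by 3 of 10 leukocyte and 9 of 10 keratinocyte markers. Among the markers that did not pass were ALB, APOA1 and TTR of hepatocytes and PTPRC, CD3E and CD68 of leukocytes. The summed levels in vehicle and Aramchol were 106 to 172 and 123 to 134 CPM for hepatocyte markers, 148 to 184 and 161 to 166 for fibroblast and stellate cell markers, 13.5 to 21.3 and 18.96 to 24.5 for endothelial markers, 29.0 to 35.6 and 29.7 to 30.2 for leukocyte markers, and 55.7 to 103 and 73.7 to 119 for keratinocyte markers. The ranges of the groups overlapped for each of these 5 lists.

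**Figure D3:**
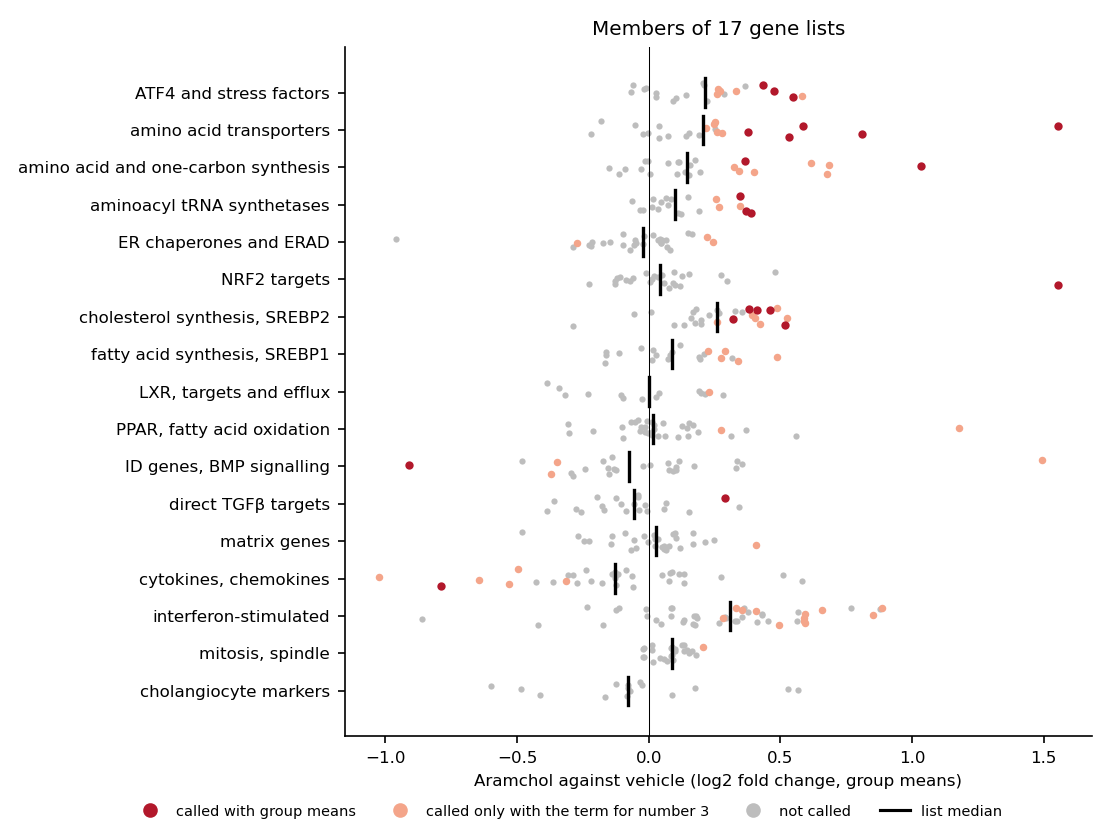
Each point is a tested member of 1 of 17 lists, placed by its log2 fold change by group means, and the black bar is the median of the list. The medians of the 4 amino acid response lists (0.10 to 0.21), of the cholesterol list (0.26) and of the interferon list (0.31) lie to the right of 0; the interferon list has no gene called by group means.

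The response to Aramchol was also read in cells that had TGFβ, from 6 other libraries that share the estimate of spread. TGFβ + Aramchol against TGFβ gave 486 calls (2.25%), 192 higher (0.890%) and 294 lower (1.36%). Of the 77 genes called with Aramchol alone 72 had the same sign there and 42 were called in the same direction, which is 54.5% of the 77 and 8.64% of the 486. Among the 51 rises 30 were called higher and among the 26 falls 12 were called lower. SLC7A11 went from 4.26 ± 0.981 to 9.74 ± 1.41 CPM with TGFβ present (mean ± SD, n = 3 libraries per group), a log2 fold change of 1.20 against 1.55 without TGFβ. CHAC1 had 1.24 against 1.41, ASNS 1.33 against 1.04, CREB5 1.45 against 0.98 and ATF4 0.35 against 0.43. All 5 were called with TGFβ present.

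Other genes were called with Aramchol alone and not with TGFβ present, among them ADM2, SLC7A5, STARD4 and CHI3L1, which were chosen for this description after their values were seen. ADM2 had a log2 fold change of 0.50 with TGFβ (edgeR adjusted p = 0.116) against 1.41 without. SLC7A5 had 0.02 (0.939) against 0.53, and STARD4 -0.05 (0.769) against 0.38. Without Aramchol the mean level of ADM2 was 1.23 CPM in vehicle and 3.71 CPM with TGFβ. That level was 67.4 and 301 CPM for SLC7A5 and 25.8 and 37.5 CPM for STARD4. CHI3L1 had 0.19 (0.740) against -0.79. The difference between the 2 responses, tested as an interaction, did not pass for these 4 genes by group means (edgeR adjusted p = 0.683, 0.784, 0.447 and 0.773), and with the term it passed for STARD4 (0.0348). Over the 27 genes of the cholesterol list the median log2 fold change was 0.02 with TGFβ against 0.26 without. For the 4 amino acid response lists together it was 0.12 against 0.15, and for the interferon list 0.18 against 0.31. These differences between medians were not tested.

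The interaction was called for 3 genes (0.0139%), with 1137 genes at an unadjusted p under 0.05. FN1 was at 7418 ± 798 CPM with TGFβ and 4110.3 ± 434 CPM with TGFβ + Aramchol (log2 fold change -0.85), against 659 ± 29.4 and 659 ± 16.5 CPM without TGFβ (mean ± SD, n = 3 libraries per group, edgeR adjusted p of the interaction = 0.0205). JAG1 was the gene called in opposite directions, 0.29 without and -0.18 with TGFβ (interaction 0.0205, edgeR). SEC24D rose without TGFβ (0.51) and had 0.01 with it (interaction 0.0233, edgeR). Without Aramchol, SEC24D had a mean of 58.5 CPM in vehicle and 112 CPM with TGFβ, and JAG1 64.9 and 186 CPM. With the term for the libraries numbered 3 the interaction was called for 31 genes (0.144%), 9 with a higher (0.0417%) and 22 with a lower (0.102%) response in the presence of TGFβ, these 3 among them, and 4 of the 77 genes were in it: SEC24D, JAG1, STARD4 and PIK3AP1. PIK3AP1, an adaptor of PI3 kinase, fell in each comparison, with log2 fold changes of -0.34 without and -0.80 with TGFβ. The matrix genes TNC, COL4A1, COL4A2, COL5A1 and SPARC were among the 31, at log2 fold changes of 0.41, 0.05, 0.08, 0.17 and 0.12 without and -0.43, -0.39, -0.27, -0.51 and -0.40 with TGFβ.

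**Figure D4:**
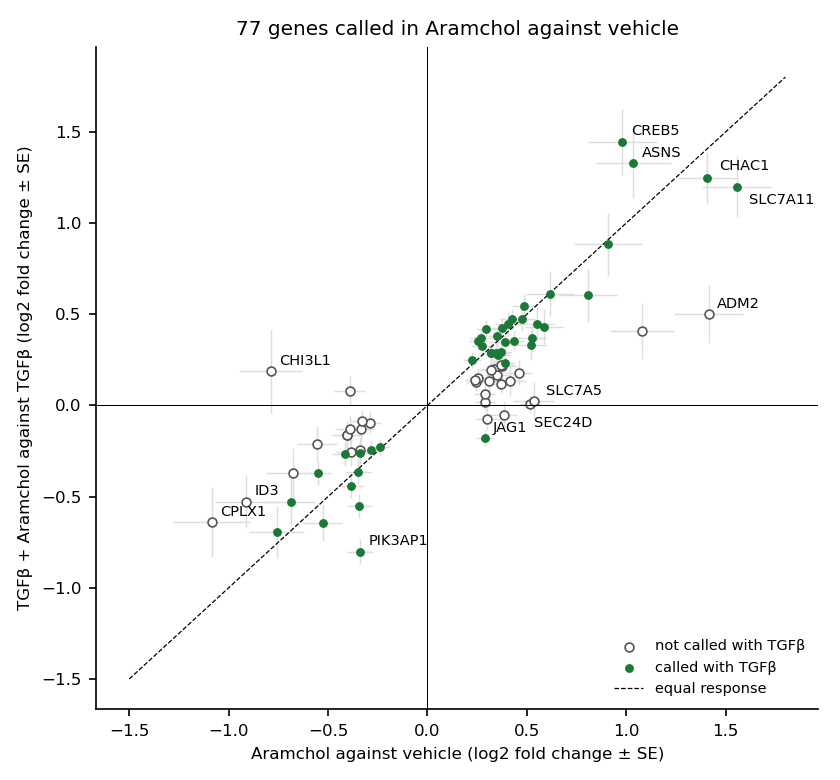
Log2 fold changes with SE of the 77 genes called with Aramchol alone, in cells without TGFβ (x axis) and with TGFβ (y axis), filled where also called with TGFβ. Most points lie to the lower left and upper right, near the line of equal response; ADM2, SLC7A5 and SEC24D lie below it and JAG1 is below 0 on the y axis.

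The wider set of calls, made with the term for the libraries numbered 3, was compared in the same way. Of those 538 genes 493 had the same sign with TGFβ present. In the fit with the term, 1683 genes (7.80%) were called with TGFβ present, 727 higher (3.37%) and 956 lower (4.43%). Of the 538, 250 were among them in the same direction and 8 in the opposite direction, which is 46.5% of the 538 and 14.9% of the 1683.

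The calls of single genes depended on the libraries in the fit. By group means 15 of the 77 genes were called without each of the 12 libraries in turn, among them SLC7A11, ADM2, CHAC1, PAX8-AS1, LINC03061, SEC24D, PER1, CEBPG, ATF4, MOCOS, TARS1, RDH11, RNF145 and NEAT1. MOCOS completes an enzyme cofactor that holds molybdenum, and RDH11 is a retinol dehydrogenase. The number of the 77 still called was 16 without Aramchol replicate 2, 18 without Aramchol replicate 1, 22 without Vehicle replicate 1 or Vehicle replicate 2, 40 without Aramchol replicate 3 and 77 without Vehicle replicate 3. Without 1 of the TGFβ libraries, with or without Aramchol, 33 to 60 were still called. With the term, 62 of the 77 were called without each library in turn.

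**Figure D5:**
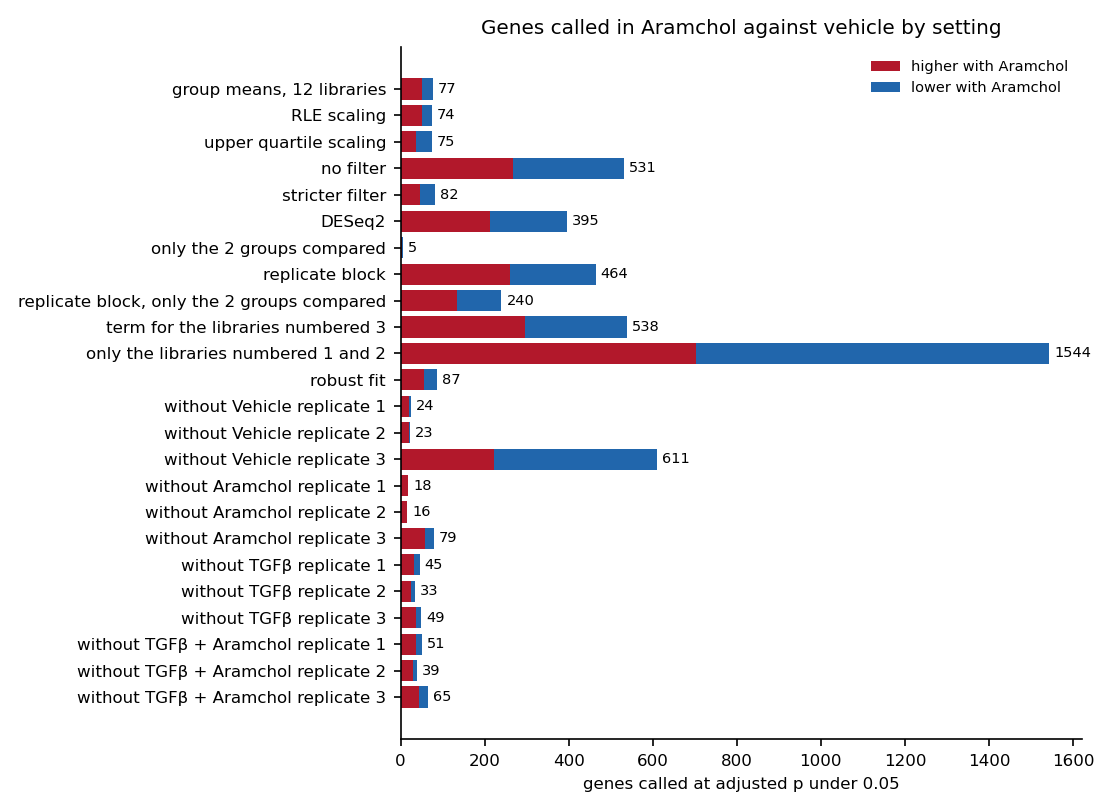
Number of genes called higher (red) and lower (blue) with Aramchol against vehicle under each setting, with the total beside each bar. The count runs from 5 with the 2 groups alone to 1544 from the libraries numbered 1 and 2, against 77 by group means and 538 with the term for the libraries numbered 3.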

How the data were processed

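Total RNA from H69 cells was extracted with Trizol and sequenced after library preparation with an IDT kit, per the labels. The authors deposited counts per gene for 12 libraries (62703 genes, 62625 with a symbol), which the submitters' processing notes tie to STAR 2.7.9a, featureCounts, Subread and DESeq2 and to GRCh38. The sources used here do not give the annotation release or the strand setting. Each column was matched to its library by name, and groups were taken from the labels.

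From these counts, 21567 genes passed filterByExpr of edgeR 4.0.16 (R 4.3.3). TMM scaling and edgeR's quasi-likelihood test were fitted to all 12 libraries with 1 mean per group, with Benjamini-Hochberg adjustment over all genes tested and a threshold of 0.05. CPM were computed with TMM-scaled library sizes, and a standard error is the absolute log2 fold change divided by the square root of F. The interaction is the response to Aramchol with TGFβ minus that without. Alternatives were a term for the libraries numbered 3, a replicate block, DESeq2 1.42.0, other scalings and filters, fewer libraries and leaving out each library. On data simulated for this comparison with 21174 genes, the test made 12 false calls and found 54% of 50 genes set to differ 1.25-fold, 70% at 1.5-fold, 94% at 2-fold and 100% at 4-fold. With the term it made 9 false calls and found 52, 68, 94 and 100%. The simulated libraries varied independently, without the shift that the libraries numbered 3 share. The genes set to differ were above 1 CPM in vehicle. These rates therefore do not give the error of the calls in the real libraries.

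The members and gene lists were chosen with earlier results of these data known. The text names a fixed set (SCD, SLC7A11, CHAC1, ATF4, TRIB3, SLC3A2, ID1, ID3, CHI3L1, FN1, HMGCS1 and INSIG1), the 10 largest called rises and falls whose higher group averaged 1 CPM or more, the 5 largest further ones called with the term, and of each list the called members and up to 3 more called with the term. Other genes named were chosen after their values were seen. A few genes that the rule would name are not reported here. Promoters are from RefSeq, GRCh38.p14.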

Additional observations from a re-analysis of the deposited data

Results flagged for a closer look

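FN1, JAG1 and SEC24D were singled out because their response to Aramchol differed between cells without and with TGFβ by the interaction test over all 21567 genes. For FN1, which encodes fibronectin, the log2 fold change was 0.00 without and -0.85 with TGFβ (edgeR adjusted p of the interaction = 0.0205). For the Notch ligand gene JAG1 it was 0.29 and -0.18 (edgeR adjusted p = 0.0205). For the vesicle coat gene SEC24D it was 0.51 and 0.01 (edgeR adjusted p = 0.0233). Without Aramchol all 3 genes had a higher mean level with TGFβ than in vehicle. The number of genes with such a call ran from 0 to 7 when 1 library was left out, and it was 0 without Vehicle replicates 1 or 2, Aramchol replicates 1 or 2, TGFβ replicates 2 or 3 or TGFβ + Aramchol replicates 1 or 2. With 3 libraries per group, no group was large enough to be searched for a library that stands apart in a single gene.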

How the results depend on the processing

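The number of genes called depended on how the spread was estimated and on which libraries were used, and the cause was not tested. Against 77 genes (51 higher, 26 lower), no filter gave 531 (267 and 264), DESeq2 395 (213 and 182), the term for the libraries numbered 3 538 (295 and 243), the libraries numbered 1 and 2 alone 1544 (704 and 840) and the 2 groups alone, which leave the fewest libraries to estimate the spread, 5 (4 and 1). RLE scaling, a stricter filter and a robust fit gave 74, 82 and 87. Upper quartile scaling gave 75, with 37 higher and 38 lower, so the share of rises went from 66.2 to 49.3%. Leaving out 1 library gave 16 to 611 genes, 15 to 222 higher and 1 to 389 lower, the most without Vehicle replicate 3 and the fewest without Aramchol replicate 2. With the term it gave 142 to 2115, 87 to 949 higher and 55 to 1166 lower. A block for the replicate number gave 464 genes (261 and 203), and 240 (135 and 105) with the 2 groups alone. Same-numbered libraries correlated at 0.0750, 0.0496 and 0.221 in their deviations, and replicates 1 and 2 correlated best across numbers, so the numbers were not taken as pairs.

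The interaction, called for 3 genes, gave 151 with no filter, 27 with DESeq2, 23 with the block, 31 with the term, 191 from the libraries numbered 1 and 2 and 0 to 7 without 1 library. No called gene among those named by rule changed sign. FN1, close to 0, changed sign under RLE scaling (0.0029), DESeq2 (0.0029) and without Vehicle replicate 1 or 2 or Aramchol replicate 1 or 2 (-0.0365 to 0.027 over all omissions). Of 1216 other results for named genes 834 kept their side of the threshold and direction, 337 passed it newly, 43 lost it and 2 changed sign. Counts of list members without Vehicle replicate 3 and from the libraries numbered 1 and 2 were added after seeing the data. The 3 libraries per group limit precision, and genes near 1 CPM rest on few counts.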

Other observations

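Of the 77 genes called with Aramchol alone, 50 were in none of the gene lists. Among them, chosen after their values were seen, were RRBP1, a ribosome receptor of the ER (0.30, edgeR adjusted p = 0.0488), the trophoblast glycoprotein gene TPBG (0.35, 0.0307), the calcium pump gene ATP2B1 (0.36, 0.0203) and the sodium pump subunit gene ATP1B3 (0.24, 0.0480), all higher. RDH11 was at 80.7, 84.4 and 80.8 CPM in vehicle and 103, 104 and 110.2 CPM with Aramchol, and MOCOS at 39.6, 39.1 and 36.1 and 52.4, 52.5 and 49.3 CPM, without overlap between the groups. CIRBP, an RNA-binding protein induced by mild cold, was lower (-0.29, 0.0452), as was the interferon-induced GTPase gene GBP2 (-0.34, 0.0485), whereas no member of the interferon list was called by group means. Of these genes, RDH11 and MOCOS were called without each of the 12 libraries in turn. The others missed the threshold without Aramchol replicates 1 or 2, with adjusted p up to 0.274 for RRBP1, 0.178 for TPBG, 0.116 for ATP2B1, 0.234 for ATP1B3, 0.185 for CIRBP and 0.274 for GBP2 (edgeR).

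In the term for the libraries numbered 3, 2725 of the 21567 genes were called (12.6%), 1141 higher and 1584 lower, and 5 of the 77 genes were among them.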
